A study of Rattus norvegicus with 10 samples.

Results

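Splicing factors and heterogeneous nuclear ribonucleoproteins (hnRNPs) are proteins that act on pre-mRNA, the former in the removal of its introns and the latter mainly by binding, packaging and carrying it. Their genes were taken from a rat liver array experiment as all probe sets annotated to exactly 1 gene symbol that begins with Snrp, Srsf, Sf3a or Sf3b, Prpf, Lsm, U2af or Hnrnp, with a digit after all but the first and the last of these. The pattern found 105 probe sets for 67 genes, out of 15859 probe sets without controls and 9378 genes. A further 9 probe sets that list such a gene together with a second one, among them all those of Hnrnpk, Snrpn, Snrpc, Snrpg, Srsf3 and Lsm6, were left out.

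Liver RNA came from 10 rats of the strain CRL:WI (Han), 6 to 8 weeks old, housed in groups of 5 and given a volume of 5 ml/kg by gavage. The vehicle group of 5 rats received deionized water, and the treated group of 5 rats received RG3487 at 180 mg/kg. RG3487 is a small molecule known as a partial agonist of the nicotinic receptor with the alpha7 subunit. By the sample labels the tissue was taken 24 h after dosing, but the text of the series gives 2 h. Each animal gave 1 array, and each cage of 5 may have held 1 group, so that cage and treatment cannot be told apart. Because each sample is a piece of whole liver, a change in the number of cells of a type and a change in the RNA per cell cannot be told apart.

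Introns are removed by the spliceosome, which is built anew on each pre-mRNA from small nuclear ribonucleoproteins (snRNPs) made of a short RNA and its proteins. The U1 particle binds the splice donor, U2af and the U2 particle with its Sf3a and Sf3b subunits recognise the acceptor and the branch point, and a particle of U4, U6 and U5 with many Prpf proteins then joins to form the catalytic centre. SR proteins (Srsf) and hnRNPs bind exons and introns around these sites and shift their use, and many hnRNPs also package, export and stabilise mRNA. Genes of this machinery are transcribed in most cells, hepatocytes among them.

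The sequences before the start sites of the genes with the largest increases are shown first, with the motifs that were counted in the promoters of all families. RefSeq promoter windows (build GRCr8, 250 bases before to 50 bases after the start of each gene) matched 62 of the 67 genes. The 250 bases before the start are printed 5′ to 3′ on the strand of the gene, and capitals mark every match, on either strand, to 1 of 8 motifs spelled out after them. They cover chr7:136253868-136254117 on the plus strand for Hnrnpa1, chr1:129051800-129052049 on the plus strand for Snrpa1 and chr3:80985684-80985933 on the plus strand for Hnrnpa3. For Srsf2 they cover chr10:102554142-102554391 on the minus strand, and for Snrpf chr7:30024163-30024412 on the minus strand.
Hnrnpa1: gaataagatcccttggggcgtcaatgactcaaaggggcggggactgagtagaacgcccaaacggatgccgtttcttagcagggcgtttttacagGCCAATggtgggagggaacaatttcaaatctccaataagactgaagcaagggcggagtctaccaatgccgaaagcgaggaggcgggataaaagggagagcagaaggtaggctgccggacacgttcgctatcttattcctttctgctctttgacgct
Snrpa1: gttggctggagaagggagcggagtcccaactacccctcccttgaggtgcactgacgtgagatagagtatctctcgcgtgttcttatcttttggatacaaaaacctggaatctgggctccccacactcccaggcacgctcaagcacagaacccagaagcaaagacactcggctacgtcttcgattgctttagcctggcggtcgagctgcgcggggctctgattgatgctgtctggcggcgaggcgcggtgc
Hnrnpa3: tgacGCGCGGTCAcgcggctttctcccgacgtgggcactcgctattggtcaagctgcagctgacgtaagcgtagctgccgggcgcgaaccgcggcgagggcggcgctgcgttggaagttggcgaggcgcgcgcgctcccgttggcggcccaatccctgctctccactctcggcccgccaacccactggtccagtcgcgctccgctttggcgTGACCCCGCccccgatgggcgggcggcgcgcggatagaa
Srsf2: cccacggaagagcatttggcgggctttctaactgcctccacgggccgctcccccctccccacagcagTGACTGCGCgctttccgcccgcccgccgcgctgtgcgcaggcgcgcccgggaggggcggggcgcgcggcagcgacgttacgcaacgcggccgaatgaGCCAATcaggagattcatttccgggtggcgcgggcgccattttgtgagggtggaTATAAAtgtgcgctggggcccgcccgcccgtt
Snrpf: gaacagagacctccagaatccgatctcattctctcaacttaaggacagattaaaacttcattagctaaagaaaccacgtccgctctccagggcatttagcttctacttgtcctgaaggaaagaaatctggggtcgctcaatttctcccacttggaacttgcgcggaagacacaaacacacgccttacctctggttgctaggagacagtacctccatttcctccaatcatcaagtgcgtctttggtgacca

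The NF-Y motif, the CCAAT-box sequence searched as GCCAAT, was in the windows of 10 of 16 Hnrnp genes, 4 of 11 Prpf genes, 3 of 8 Srsf genes and 1 of 8 Snrp genes, and in 0 of 8 Sf3a and Sf3b genes, 0 of 9 Lsm genes and 0 of 2 U2af genes. Over all 62 genes it was in 29.0% of the windows, against 19.3% of the 6514 tested genes and 15.7% of 19005 protein-coding promoters. It was in 15 of the 36 genes with a probe set that rose with RG3487 and in 3 of the other 26, and 10 of these 18 genes are Hnrnp genes, of which most rose. The ETS motif CCGGAAG was in 29.0% of the 62 windows, in 20.6% of those of tested genes and in 11.2% of all promoters, with 4 of 8 Snrp and 4 of 8 Sf3a and Sf3b genes but 2 of 16 Hnrnp genes. It was in 9 of the 36 genes with a probe set that rose and in 9 of the other 26.

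The other motifs were GCATGCGC, part of the NRF1 site (9.68% of the 62 windows, 5.51% of tested genes, 3.23% of all), the YY1 motif AAGATGGC (6.45%, 6.45% and 3.88%) and the TATA box TATAAA (6.45%, 6.79% and 13.1%). The E-box CACGTG (11.3%, 10.3% and 7.26%), the antioxidant response element core TGACNNNGC (12.9%, 15.0% and 12.7%) and TCTCGCGA, part of the ZBTB33 site (4.84%, 2.44% and 1.28%), completed the search. Among the 36 genes with a probe set that rose and the other 26, the NRF1 letters were in 1 and 5, the YY1 motif in 1 and 3 and the ZBTB33 letters in 0 and 3. The TATA box was in 4 and 0, the E-box in 6 and 1 and the antioxidant core in 6 and 2. Over the 62 windows the antioxidant core had about the share of the other tested genes, and a TATA box was in a smaller share than over all promoters, as it was for tested genes in general. No matches of different motifs overlapped in the printed sequences, a match is a description of letters only, and none of these shares was tested.

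With RG3487, many of these genes rose and none passed the test as lower. The deposited signals were compared as log2(signal + 16) with limma over all 11894 probe sets above the dimmest 25%, with 0.05 as the threshold of the Benjamini-Hochberg adjusted p. Of the 105 probe sets, 95 were bright enough to be tested, and 49 of these (51.6%) were higher, 0 were lower and 46 did not pass. Over all probe sets tested, 20.5% were higher and 7.16% lower. At an unadjusted p under 0.05, limma had 3 of the 95 lower (Srsf6 1383466_at, Srsf10 1393946_at and Prpf4b 1385533_at). The exact rank-sum test had 0 lower after adjustment, but only groups that did not overlap passed that test. The median log2 change was 0.24 for the 95 and 0.083 for all probe sets, and the 95 ranged from -0.28 to 0.92, with 83 above 0. The 5 RG3487 signals lay wholly above the 5 vehicle signals for 34 of the 95, a property of 13.9% of all probe sets. Of the 95, 4 passed with an increase of at least 1.5-fold, as did 2.09% of all probe sets tested. Counted with 1 probe set per gene, 40 of 66 genes were higher, against 22.3% of all genes.

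**Figure D1:**
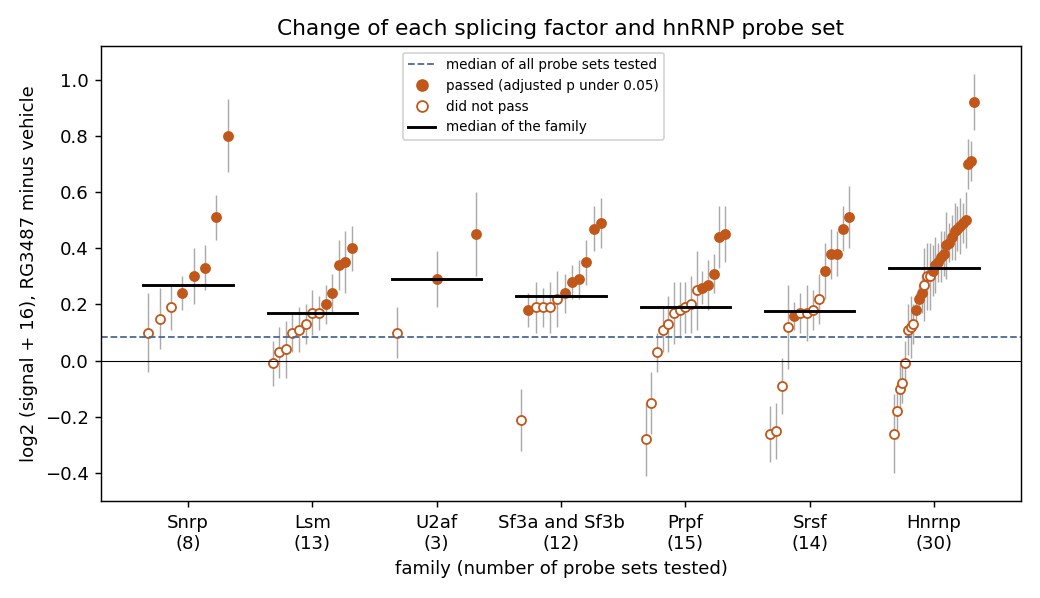
Log2 change (RG3487 minus vehicle, on the log2 scale of signal + 16) of each of the 95 probe sets tested, by family; the grey bars are 1 standard error, filled points passed the test, the short black lines are the family medians and the dashed line is the median of all probe sets, 0.083. Every family median lies above the dashed line, from 0.17 for Lsm to 0.33 for Hnrnp, and the open points below 0 are all short of the threshold.

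Among the Snrp genes, which encode proteins of the snRNP particles, 5 of 8 tested probe sets rose, against 20.5% of all probe sets. Their median was 0.27, with a range of 0.10 to 0.80. Snrpa1, the U2 protein A′, had signals of 116, 116, 83, 103 and 84 in the vehicle animals and 155, 216, 144, 221 and 204 with RG3487. All 5 treated livers were above all 5 controls, although treated animals 1 and 3 stood nearer to the controls than the other 3. The log2 change was 0.80 ± 0.13 (SE, n = 5 and 5), or 1.74-fold (limma adjusted p = 0.00128).

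Snrpf, 1 of the 7 proteins of the Sm ring that is loaded onto the snRNAs, read 177, 160, 179, 158 and 166 with vehicle and 243, 218, 234, 256 and 285 with RG3487. The groups did not overlap, and the change was 0.51 ± 0.08 (limma adjusted p = 0.000708). The other tested Sm ring probe sets had smaller changes, and differences between these genes were not tested. The Snrpd1 probe set 1379320_at, too dim to be tested, had 0.49 ± 0.10 in a fit without a filter. Snrpd3 rose by 0.33 ± 0.08 on the log2 scale (limma adjusted p = 0.0129), from a mean of 277 ± 23.5 (SD, n = 5) to 352 ± 35.3, with treated animal 3, at 290, inside the vehicle range of 241 to 300. Snrpb rose by 0.30 ± 0.10 (limma adjusted p = 0.0427) with overlapping groups. Snrpe (0.19 ± 0.08), Snrpd2 (0.15 ± 0.11) and the Snrpd1 probe set 1383107_at (0.10 ± 0.14) did not pass. Snrpb2, the U2 protein B″ that binds the snRNA together with the product of Snrpa1, rose by 0.24 ± 0.06 (limma adjusted p = 0.0141), from signals of 136 to 144 to signals of 157 to 186.

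The Lsm genes encode Sm-like proteins, which form a ring on the U6 snRNA in the nucleus and a second ring that starts mRNA decay in the cytoplasm. Of 13 tested Lsm probe sets 5 rose (38.5%, against 20.5% of all probe sets), with a median of 0.17, the lowest of the 7 families. After quantile normalization 1 of the 13 was higher, against 12.0% of all probe sets. Lsm4, a subunit of both rings, read 123, 143, 147, 165 and 147 with vehicle and 188, 192, 178, 206 and 217 with RG3487. These groups did not overlap, and the change was 0.40 ± 0.08 (limma adjusted p = 0.00391). Lsm1, the subunit particular to the cytoplasmic ring, rose by 0.34 ± 0.09 (limma adjusted p = 0.0131). Lsm2 rose by 0.35 ± 0.11, Lsm5 by 0.24 ± 0.07 and Lsm14a, a protein of cytoplasmic mRNA granules, by 0.20 ± 0.07 at 1 of its 2 probe sets, with limma adjusted p of 0.0298, 0.0339 and 0.0406. Lsm8, the subunit particular to the nuclear ring, had 0.13 ± 0.07 and did not pass. Lsm3 (-0.01 ± 0.08) and Lsm7 (0.04 ± 0.10), which belong to both rings, did not pass either. Lsm10, which replaces an Sm protein in the U7 particle that processes histone mRNA, had 0.03 ± 0.09, and both probe sets of its partner Lsm11 were too dim to be tested.

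U2af1 and U2af2 encode the factor that binds the splice acceptor and the tract of pyrimidines before it, and both rose. U2af1 read 186, 169, 169, 265 and 155 with vehicle and 227, 229, 220, 340 and 298 with RG3487. Vehicle animal 4, at 265, was above 3 of the treated animals, so the groups overlapped, and the change was 0.45 ± 0.15 (limma adjusted p = 0.0408). U2af2 rose by 0.29 ± 0.10 (limma adjusted p = 0.0388), also with overlap, and the related U2af1l4 had 0.10 ± 0.09 and did not pass.

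The Sf3a and Sf3b genes encode the U2 subunits that hold the branch point. Of their 12 probe sets 7 rose (58.3%, against 20.5% of all probe sets), with a median of 0.23. Sf3b3 read 272, 247, 258, 262 and 241 with vehicle and 392, 368, 302, 367 and 384 with RG3487, a change of 0.47 ± 0.08 (limma adjusted p = 0.00102). Every treated liver was above every control, with treated animal 3 well below the other 4. Sf3a3 read 135, 159, 113, 119 and 114 with vehicle and 181, 205, 164, 185 and 194 with RG3487, and rose by 0.49 ± 0.09 (limma adjusted p = 0.00282) without overlap. The next were Sf3b4 at 0.35 ± 0.08, Sf3b6, whose product lies beside the branch point, at 0.29 ± 0.07, and Sf3b2 at 0.28 ± 0.06 for 1 of its 2 probe sets. Their limma adjusted p were 0.00934, 0.00698 and 0.00363. Sf3b1, the largest subunit, rose by 0.24 ± 0.07 and 0.18 ± 0.06 at 2 of its 3 probe sets (limma adjusted p = 0.0219 and 0.0435). Sf3a1 (0.22 ± 0.10), Sf3a2 (0.19 ± 0.09) and Sf3b5 (0.19 ± 0.07) did not pass.

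Of 15 tested Prpf probe sets 5 rose (33.3%, against 20.5% of all probe sets), the smallest share of the 7 families, with a median of 0.19. After quantile normalization 2 of the 15 were higher, against 12.0% of all probe sets. Prpf19, a ubiquitin ligase that takes part in activating the spliceosome, read 221, 195, 210, 178 and 167 with vehicle and 277, 253, 205, 307 and 312 with RG3487. Treated animal 3, at 205, lay within the vehicle range, and the change was 0.44 ± 0.11 (limma adjusted p = 0.0129). Prpf38a, which is also needed for activation, read 73, 69, 85, 88 and 73 with vehicle and 91, 111, 108, 112 and 140 with RG3487, without overlap, and rose by 0.45 ± 0.10 (limma adjusted p = 0.00704). Prpf4b, a kinase that phosphorylates spliceosome proteins, rose by 0.31 ± 0.07 at 1 of 4 probe sets (limma adjusted p = 0.00545). Prpf4 and Prpf3, partners in the U4 and U6 part of the tri-snRNP, rose by 0.26 ± 0.06 and 0.27 ± 0.09 (limma adjusted p = 0.00796 and 0.0448). Prpf8, the scaffold of the catalytic centre, read 565, 519, 495, 375 and 388 with vehicle and 432, 465, 419, 385 and 379 with RG3487. Its groups overlapped almost completely, and its change of -0.15 ± 0.11 (95% interval -0.39 to 0.09) did not pass. Prpf6, a bridge within the tri-snRNP, had 0.17 ± 0.11, Prpf39, of the U1 particle, 0.11 ± 0.08, and Prpf18, of the second catalytic step, 0.03 ± 0.07.

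Of 14 tested probe sets of the SR protein genes (Srsf) 6 rose (42.9%, against 20.5% of all probe sets). They were both probe sets of Srsf1, of Srsf2 and of Srsf11. No probe set of the other 5 genes passed, although some had changes as large as the smaller one of Srsf11, and differences between the genes were not tested. Srsf1, the SR protein first purified as a splicing factor, read 155, 144, 152, 126 and 137 with vehicle and 196, 225, 194, 189 and 217 with RG3487. The groups did not overlap, and the change was 0.47 ± 0.08 (limma adjusted p = 0.00106). The other Srsf1 probe set rose by 0.38 ± 0.09 (limma adjusted p = 0.00905).

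Srsf2, which binds exonic enhancers, read 170, 169, 172, 144 and 128 with vehicle and 239, 214, 189, 224 and 289 with RG3487 at probe set 1371839_at, again without overlap, and rose by 0.51 ± 0.11 (limma adjusted p = 0.00558). Its probe set 1371838_at rose by 0.32 ± 0.10 (limma adjusted p = 0.0346), and the pair for Srsf11 rose by 0.38 ± 0.08 and 0.16 ± 0.05 (limma adjusted p = 0.00591 and 0.036). Srsf4 (0.22 ± 0.09), Srsf9 (0.17 ± 0.07) and Srsf5 (0.12 ± 0.15) did not pass, and for Srsf5 the widest spread came from treated animal 2, at 456 against 740 to 819 in the other 4. The probe sets of Srsf6 ranged from -0.26 to 0.18 and those of Srsf10 from -0.25 to 0.17, all short of the threshold.

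**Figure D2:**
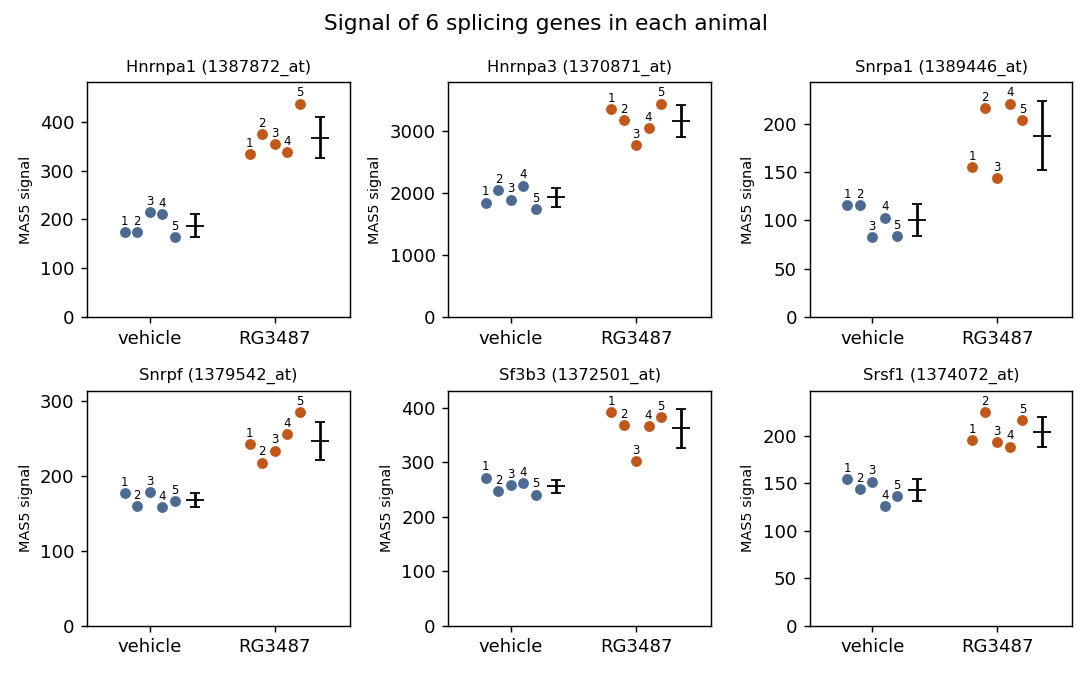
Deposited signal (linear scale, axes from 0) of 6 genes in each of the 5 vehicle and 5 RG3487 animals; the numbers beside the points are the animals of each group and the bars beside them are the mean and 1 SD. The groups do not overlap for any of the 6, and RG3487 animal 3 is the lowest of its group for Hnrnpa3, Snrpa1 and Sf3b3.

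The hnRNP genes are the largest of the 7 families and held the largest single increase. Of 30 tested probe sets 19 rose (63.3%), in 14 of 17 genes, with a median of 0.33. That share stood beside 66.7% of the 3 for U2af, 62.5% of the 8 for Snrp and 20.5% of all probe sets. Hnrnpa1, which represses exons and shuttles mRNA out of the nucleus, read 173, 174, 214, 211 and 163 with vehicle and 333, 375, 354, 338 and 437 with RG3487 at the probe set with the largest change of all 95. Its lowest treated animal was far above its highest control, and the change was 0.92 ± 0.10, or 1.89-fold (limma adjusted p = 9.47e-05). Its relative Hnrnpa3 read 1841, 2046, 1890, 2117 and 1740 with vehicle and 3353, 3177, 2772, 3039 and 3436 with RG3487. The groups were again apart, by 0.71 ± 0.07 or 1.63-fold (limma adjusted p = 7.99e-05).

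Hnrnpa2b1, a further A/B type protein that sorts RNAs and microRNAs, read 969, 964, 1109, 987 and 875 with vehicle and 1347, 1343, 1412, 1191 and 1526 with RG3487. It rose without overlap by 0.47 ± 0.08 (limma adjusted p = 0.00113). Hnrnpab rose by 0.48 ± 0.10 (limma adjusted p = 0.00408), with treated animal 3, at 1495, just below the highest control at 1508, and Hnrnpa0, which binds AU-rich mRNAs, by 0.22 ± 0.05 (limma adjusted p = 0.0105). Hnrnpu, a protein of the nuclear scaffold, read 789, 814, 786, 763 and 772 with vehicle and 1027, 979, 959, 1201 and 1126 with RG3487. That is a rise of 0.42 ± 0.07 (limma adjusted p = 0.00098) with a wide gap between the groups.

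Its relative Hnrnpul1 rose by 0.44 ± 0.08 (limma adjusted p = 0.00218), and Hnrnpf, which binds runs of G, by 0.35 ± 0.07 (limma adjusted p = 0.00452). Hnrnpd, the mRNA decay factor AUF1, rose by 0.41 ± 0.12, Hnrnpdl by 0.46 ± 0.10 at 1 of its 2 tested probe sets, Hnrnpr by 0.34 ± 0.10 and Hnrnpm by 0.32 ± 0.09, with limma adjusted p of 0.0218, 0.00632, 0.0203 and 0.0193. Hnrnpc, which coats introns and competes with U2af2 for runs of U, rose by 0.18 ± 0.06 (limma adjusted p = 0.0341), and Hnrnph3 by 0.24 ± 0.07 at 1 of 2 probe sets. The 3 genes with no call were Hnrnph1 (0.11 ± 0.09), Hnrnpl (0.30 ± 0.12) and Hnrnpll (-0.01 ± 0.08), the last of which had a mean of 172 in both groups.

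Probe sets of 1 gene often differed. Of 17 genes with several tested probe sets, 3 had all of them higher (Srsf1, Srsf2 and Srsf11), 10 had some and 4 had none. The within-animal difference between 2 probe sets of a gene was compared between the groups for all 46 pairs. It was taken on the log2 scale of the main fit, without further normalization. The test was an exact permutation test, two-sided, over all 252 regroupings of the animals. That scale understates the fold of dim genes, and its part in the differences of pairs of unlike brightness was not tested. The difference passed an adjusted p of 0.05, over the 46 pairs, for 17 pairs in 7 genes (Hnrnpa1, Hnrnpa2b1, Hnrnpa3, Hnrnpu, Prpf4b, Sf3b1 and Srsf6). The 2 probe sets of a pair had changes of opposite sign for 18 pairs in 8 genes. Pairs of a gene with more than 2 probe sets share probe sets, so the pairs are not independent. These counts were not made for the other genes of the array, so whether splicing genes differ from them here was not tested.

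Hnrnpa3 had 5 tested probe sets, of which 1370871_at, 1388119_at and 1370872_at rose by 0.71, 0.49 and 0.37, while 1394741_at had 0.12 and 1374405_at had -0.08. The last read 343, 282, 310, 323 and 279 with vehicle and 301, 270, 288, 307 and 283 with RG3487, so that its groups overlapped fully. The change of 1370871_at minus that of 1374405_at was 0.78 (exact permutation p = 0.00794, the smallest possible, adjusted p = 0.0281), and the difference separated the groups in all 10 animals. After quantile normalization these 2 probe sets had changes of 0.74 and -0.19, so that their difference was larger there. For Hnrnpu, 1370170_at differed from 1372823_at by 0.68, since the latter read 121, 137, 99, 127 and 80 with vehicle and 90, 76, 78, 91 and 120 with RG3487. For Hnrnpa2b1, 1398883_at differed from 1373540_at by 0.65, and for Hnrnpa1, 1387872_at from 1372693_at by 0.65, each with the same exact permutation p = 0.00794.

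Hnrnpa1 had no probe set below 0, as 1372693_at had 0.27 ± 0.13 and did not pass. In Prpf4b, 1376010_at rose while 1385533_at had -0.28 ± 0.13, a difference of 0.58, and in Sf3b1, 1389840_at rose while 1382691_at had -0.21 ± 0.11, a difference of 0.39. In Srsf6, neither 1372075_at (0.18) nor 1383466_at (-0.26) passed, yet they differed from each other by 0.45. These 3 differences also had an exact permutation p of 0.00794 and an adjusted p of 0.0281. Where each probe set lies in its transcripts was not analysed here, so these values belong to the probe sets and not to named isoforms.

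**Figure D3:**
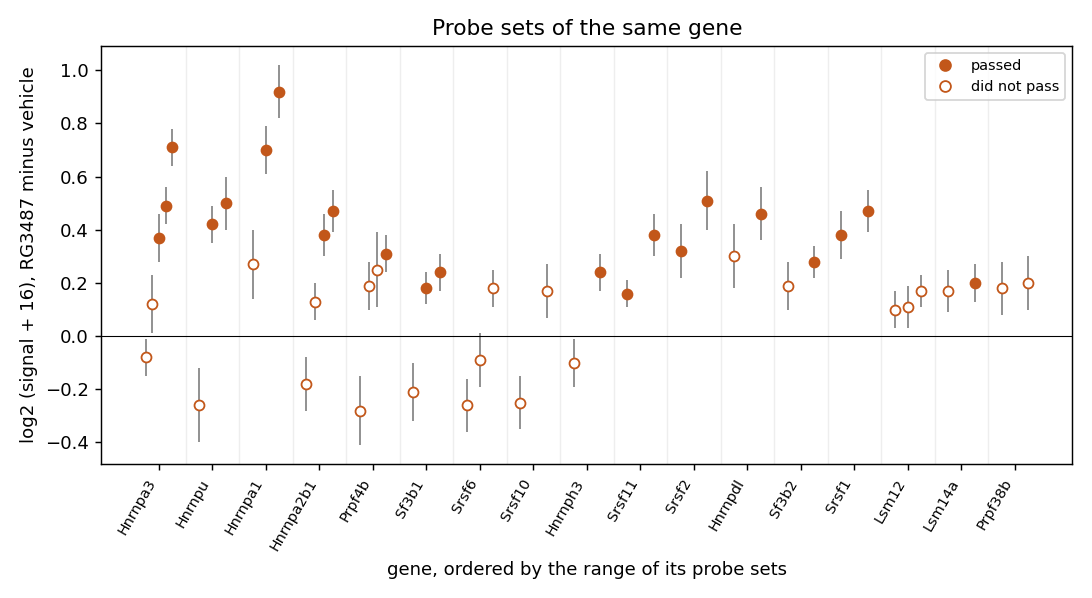
Log2 change (RG3487 minus vehicle, signal + 16) of every tested probe set of the 17 genes with more than 1, with bars of 1 standard error and filled points for those that passed. Hnrnpa3 has the widest range, from -0.08 to 0.71, and in 6 genes a probe set that passed stands beside one below 0.

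Over all 95 probe sets, called or not, the deviation from the vehicle mean had a median of 0.02, 0.01, 0.03, 0.04 and -0.09 in vehicle animals 1 to 5 and of 0.28, 0.20, 0.18, 0.25 and 0.34 in RG3487 animals 1 to 5. Each treated animal was thus above each control, with RG3487 animal 3 the lowest of its group and RG3487 animal 5 the highest. Over all probe sets of the array the same median was -0.043 to 0.028 with vehicle and 0.061 to 0.102 with RG3487. For the 49 that rose, which were chosen for their difference, it was -0.08 to 0.04 and 0.24 to 0.47. Within its group, RG3487 animal 3 was the lowest for 24 of the 49, RG3487 animal 5 the highest for 24, and vehicle animal 5 the lowest of its group for 23. The array medians were 91, 91, 89, 87 and 85 with vehicle and 95, 94, 92, 96 and 95 with RG3487, so that RG3487 animal 3 and vehicle animal 5 also had the lowest median of their groups.

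Values of the whole array differed between the groups as well. The median (mean of 88.6 with vehicle and 94.4 with RG3487) and the upper quartile (233.2 and 252.2) of the signal were higher with RG3487. The maximum (10784 and 9771.4) and the level of the hybridization controls (9.90 with vehicle and 9.71 with RG3487, log2) were lower. Each of these measures separated the groups fully (exact permutation p = 0.00794, adjusted p = 0.0119 over 6 measures). The mean signal was 330 to 332 on every array. The ratios of the 3′ to the 5′ signal of Gapdh and actin, a sign of RNA quality, were compared between vehicle and RG3487. They were 1.20 and 1.15 for Gapdh (adjusted exact permutation p = 0.0762) and 3.42 and 3.10 for actin (adjusted exact permutation p = 0.119). The actin ratio was lowest in RG3487 animal 5, at 2.73, and highest of that group in RG3487 animal 3, at 3.54. These animals had the highest and the lowest splicing deviation of their group. Vehicle animal 5, with the lowest deviation, had the highest actin ratio, at 3.6. Vehicle animal 2 had the lowest of its group, at 2.97, without the highest deviation. A link between ratio and deviation was not tested. The number of arrays limits the precision of all these values.

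Markers of cell types were read in the same arrays. Of 9 hepatocyte markers 1 was higher and 3 lower, and their summed signal was 62129 to 67495 with vehicle and 54227 to 63576 with RG3487. The 3 lower were Apoa1 (-0.19 ± 0.06, limma adjusted p = 0.0254) and Apob (-0.20 ± 0.06, limma adjusted p = 0.0275), of lipoproteins, and Serpina1 (-0.14 ± 0.05, limma adjusted p = 0.0425), a protease inhibitor of the blood. The higher one was Hnf4a, a transcription factor of hepatocytes (0.29 ± 0.06, limma adjusted p = 0.00653), and the 5 that did not pass, Alb among them, had -0.14 to -0.02. Of 8 Kupffer cell markers 1 was higher and 2 lower, with sums of 3226 to 4030 and 3112 to 4220. The higher one was Lyz2 (0.65 ± 0.16, limma adjusted p = 0.0122), and all the others had changes below 0. The 2 lower were Cd163 (-0.37 ± 0.07, limma adjusted p = 0.00316) and C1qb (-0.23 ± 0.08, limma adjusted p = 0.0403). Of 5 endothelial markers 0 were higher and 1 lower, with sums of 2300 to 2569 and 1949 to 2277. Of 6 stellate cell markers tested 1 was higher and 1 lower, with sums of 1318 to 1730 and 1489 to 1717. The single cholangiocyte marker and the 2 leukocyte markers tested did not pass (sums of 114 to 181 and 141 to 276, and of 857 to 1088 and 601 to 1187). Each sum holds every marker of its list with a probe set, also those too dim to be tested. That makes 8 stellate cell, 2 cholangiocyte and 3 leukocyte markers. The endothelial sums did not overlap between the groups (exact permutation p = 0.00794, the smallest possible, or 0.0556 adjusted over 7 lists, so that 1 separated list alone could not pass). The hepatocyte sum (exact permutation p = 0.0317) and that of dividing cells (exact permutation p = 0.0397) each had an adjusted p of 0.0926, the other 4 lists had adjusted p of 0.292 to 0.913, and their part in the splicing genes' rise was not tested.

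Of 6 markers of dividing cells, Pcna was bright enough to be tested and did not pass (0.10 ± 0.09), and the summed signal of all 6 was 411 to 520 with vehicle and 449 to 983 with RG3487. The other 5, Mki67, Top2a, Cdk1, Ccnb1 and Ccnb2, were under the signal filter and summed to 91, 71, 88, 68 and 45 with vehicle and to 58, 226, 600, 350 and 164 with RG3487. In the fit without a filter, 3 of these 5 were higher, namely Top2a (0.97 ± 0.24, limma adjusted p = 0.0142), Ccnb1 (1.07 ± 0.33, limma adjusted p = 0.0375) and Ccnb2 (1.09 ± 0.32, limma adjusted p = 0.0311). Mki67 (0.86 ± 0.30) and Cdk1 (1.15 ± 0.42) did not pass. RG3487 animal 3 had the highest sum and RG3487 animal 1 a sum inside the vehicle range.

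**Figure D4:**
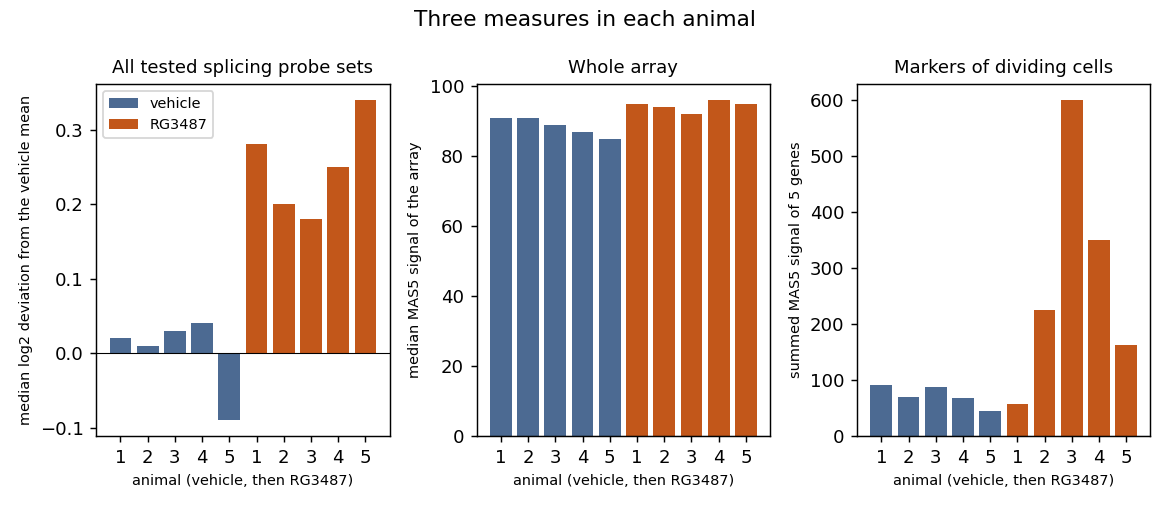
Per animal (vehicle 1 to 5, then RG3487 1 to 5), from left to right: median log2 deviation of all 95 tested splicing probe sets from the vehicle mean, median signal of the array, and summed signal of 5 markers of dividing cells. In the left panel the RG3487 animals lie at 0.18 to 0.34 and the vehicle animals at -0.09 to 0.04, and in the right panel the highest bar is RG3487 animal 3, at 600.

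How many of these genes passed depended on how the arrays were scaled. Quantile normalization gave 29 higher and 2 lower, against 12.0% and 10% of all probe sets, and centring each array on its median gave 32 higher and 2 lower, against 11.4% and 11.2%. Scaling by the hybridization controls, transcripts added for the hybridization of each array, gave 81 higher and 0 lower, against 56.2% of all probe sets higher. This scaling holds only if every array received the same amount of these controls and of labelled sample, on which the sources used here are silent. The median of all probe sets was 0.083 as deposited, 0.013, 0.005 and 0.278 under these 3 scalings, and among all calls the share that was higher was 74.1%, 54.4%, 50.4% and 95%.

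Relative to the median of all probe sets, the median of the splicing probe sets was 0.15 as deposited, 0.14 after quantile normalization, 0.15 after centring and 0.15 with the hybridization controls. For Hnrnp it was 0.21 to 0.25 and for Lsm 0.06 to 0.08. A total of 28 probe sets in 22 genes were higher as deposited, after quantile normalization and after centring, of which 13 were Hnrnp, 5 Sf3a and Sf3b, 4 Srsf, 3 Snrp, 2 Prpf, 1 Lsm and 0 U2af. They hold Hnrnpa1 and Hnrnpa3, Hnrnpa2b1, Hnrnpu, Snrpa1, Snrpf, Snrpd3, Sf3a3, Sf3b3, Srsf1, Srsf2, Prpf19, Prpf38a and Lsm4 among others. The share of all probe sets that were higher in all 3 of these fits was not counted. The 2 lower ones were Hnrnpa2b1 1373540_at (-0.29, limma adjusted p = 0.0414) and Srsf6 1383466_at (-0.34, limma adjusted p = 0.0352) after quantile normalization. After centring they were Srsf6 1383466_at (-0.34, limma adjusted p = 0.0331) and Srsf10 1393946_at (-0.33, limma adjusted p = 0.0438).

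**Figure D5:**
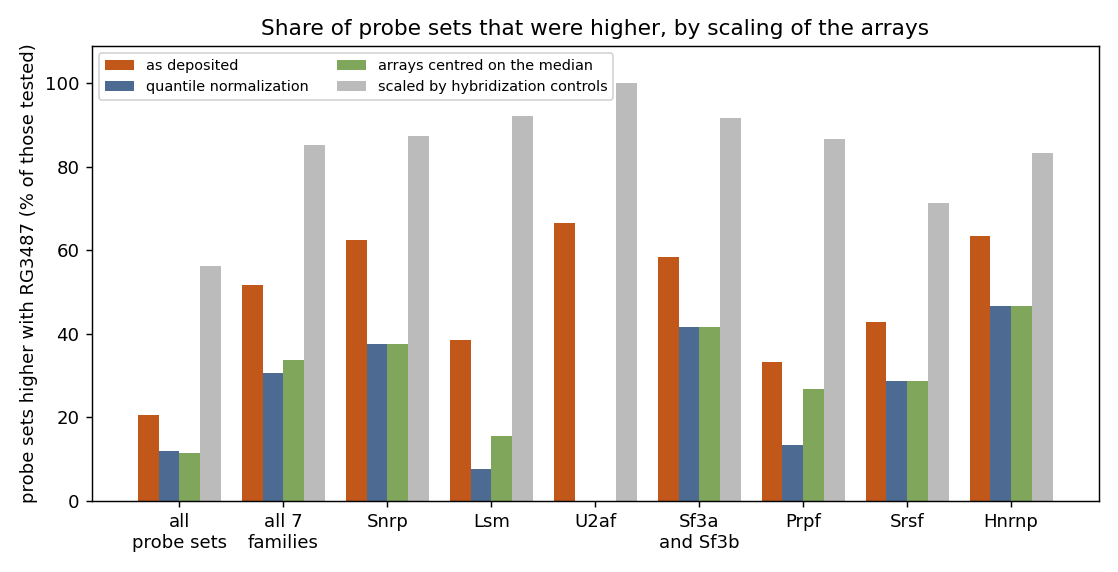
Percent of tested probe sets that passed as higher with RG3487 under 4 scalings of the arrays, for all probe sets, for all 7 families together and for each family. For all 7 families together the bar exceeds that of all probe sets under each scaling, while U2af has 0 under quantile normalization and centring. Under quantile normalization the bar of Lsm (1 of 13) lies below that of all probe sets (12.0%), and the bar of Prpf (2 of 15) is close to it.

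The weakest calls were lost when a single animal was left out, in a fit that then had fewer animals. Of the 49, 35 passed with each of the 10 animals left out in turn, among them 16 Hnrnp, 5 Sf3a and Sf3b, 4 Snrp, 4 Srsf, 4 Prpf, 2 Lsm and 0 U2af probe sets. The count was 35 without RG3487 animal 5 and 37 without vehicle animal 5, and 49 without RG3487 animal 3, of which 44 were also called with it. No such counts were made over all probe sets. Single animals whose absence ended a call were those of Hnrnpr (RG3487 animal 5, limma adjusted p = 0.053), of Hnrnpd (vehicle animal 4, RG3487 animals 1 and 5, limma adjusted p of 0.0511 to 0.054) and of Sf3b1 1390234_at (vehicle animals 4 and 5 and RG3487 animal 5, limma adjusted p of 0.0505 to 0.0568). Lsm2 lost its call without vehicle animals 2 or 5 or RG3487 animals 4 or 5, with limma adjusted p of 0.0656 to 0.0713.

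The other 10 kept their call only when the animal left out was 1 of a few, and lost it without any 1 of the other 6 to 9. U2af1 kept it without vehicle animal 4 or RG3487 animals 1, 2 or 3 (limma adjusted p of 0.0665 to 0.0949 otherwise), and U2af2 without vehicle animal 3 or RG3487 animal 2 (0.059 to 0.0774). Snrpb kept it without vehicle animals 1 or 4 or RG3487 animal 2 (0.0526 to 0.0957), and Prpf3 without vehicle animals 1 or 2 (0.05 to 0.0834). Lsm5 kept it without vehicle animals 3 or 4 or RG3487 animals 1 or 3 (0.0522 to 0.0808), and Lsm14a without vehicle animal 3 or RG3487 animals 1 or 3 (0.057 to 0.094). For Srsf2 1371838_at these were vehicle animals 1 and 2 and RG3487 animals 2 and 3 (0.0509 to 0.084), and for Srsf11 1368212_at vehicle animals 1 and 4 (0.0518 to 0.0768). For Hnrnpc they were vehicle animals 2 and 3 and RG3487 animals 2 and 3 (0.0543 to 0.0832), and for Sf3b1 1389840_at RG3487 animal 2 alone (0.0522 to 0.0975). The U2af count was thus 0 without vehicle animals 1, 2 or 5 or RG3487 animals 4 or 5, and 1 without vehicle animals 3 or 4 or RG3487 animals 1 or 3. The Lsm count was 2 without vehicle animals 2 or 5 or RG3487 animals 4 or 5, and 3 without vehicle animal 1 or RG3487 animal 2. All these changes kept their sign, with log2 values from 0.15 for Srsf11, Hnrnpc and Sf3b1 to 0.57 for U2af1.

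The signal filter left out 10 of the 105 probe sets, below a signal of 40.2. Just inside it stood Prpf38b 1385455_at, with means of 43.2 and 51.6, and just outside it Snrpd1 1379320_at, with means of 28.0 and 46.2. Without a filter, 47 of all 105 were higher, of which 45 were among the 49, against 15.0% of 15859 probe sets. The 2 additions were Snrpd1 1379320_at (0.49 ± 0.10, limma adjusted p = 0.00553), which read 26, 28, 32, 29 and 25 with vehicle and 39, 37, 53, 47 and 55 with RG3487, and Prpf38b 1379691_at (0.42 ± 0.12, limma adjusted p = 0.0229). Both had all treated animals above all controls. The Lsm11 probe sets, at 16 to 29 with vehicle and 6 to 19 with RG3487, had -0.26 ± 0.13 and -0.31 ± 0.12 and did not pass (limma adjusted p = 0.185 and 0.0927). With the dimmest 50% left out, 49 of 78 were higher, against 27.6% of all probe sets.

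Splicing genes with other names were read from 5 lists, with 1 probe set per gene. Of 49 tested spliceosome genes outside the name pattern 22 rose and 0 fell, against 22.3% of all genes higher, with a median of 0.22. Ik, the spliceosome protein RED, rose by 0.45 ± 0.05, Puf60, a partner of U2af, by 0.40 ± 0.06 and Ddx39b, the helicase that helps U2 bind, by 0.54 ± 0.08. Their limma adjusted p were 0.000234, 0.000485 and 0.000925, and the groups did not overlap for any of these 3.

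Of 35 tested splicing regulators and hnRNP-related genes with other names 17 rose and 0 fell, against the same 22.3% of all genes, with a median of 0.20. Fubp1, a protein that binds single-stranded DNA and RNA, read 117, 92, 94, 75 and 86 with vehicle and 177, 180, 167, 197 and 194 with RG3487. Its groups were far apart, and it rose by 0.88 ± 0.10 (limma adjusted p = 0.00012). Ptbp1, the pyrimidine tract binding repressor also called hnRNP I, rose by 0.60 ± 0.10 (limma adjusted p = 0.00137), and Khdrbs1, the regulator Sam68, by 0.56 ± 0.08 (limma adjusted p = 0.000463).

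Of 19 tested genes of the exon junction complex and mRNA export, which mark and carry spliced mRNA, 9 rose and 0 fell, again against 22.3% of all genes, with a median of 0.27. Magoh, of the junction core, rose by 0.49 ± 0.07, Alyref, the export adaptor, by 0.46 ± 0.08, and Upf2, of nonsense-mediated decay, by 0.36 ± 0.06 (limma adjusted p = 0.000755, 0.00195 and 0.00196). Of 12 tested genes of the SMN complex and of Sm protein methylation, which assemble the Sm ring, 3 rose and 0 fell, a share near the 22.3% of all genes, with a median of 0.18. These were Strap (0.31 ± 0.05), Prmt5, which methylates Sm proteins (0.36 ± 0.10), and Gemin8 (0.46 ± 0.14), with limma adjusted p of 0.00179, 0.0222 and 0.0263. That count was 1 without RG3487 animal 1 or without vehicle animal 5. Gemin8 lost its call without vehicle animals 2, 4 or 5 or RG3487 animals 1 or 2 (limma adjusted p of 0.0521 to 0.061), and Prmt5 without vehicle animal 5 or RG3487 animals 1 or 5 (0.0513 to 0.0538).

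The SR protein kinases and phosphatases had a median of 0.01, below the 0.083 of all probe sets, with 4 of 13 tested genes higher and 0 lower, not far from the 22.3% of all genes higher. At an unadjusted p under 0.05, limma had 2 of them lower (Clk3 and Ppp1r8) and 0 in the other 4 lists, and the exact rank-sum test had 0 lower in any list after adjustment. Srpk1, which phosphorylates SR proteins in the cytoplasm, read 60, 46, 54, 54 and 51 with vehicle and 73, 81, 70, 72 and 79 with RG3487, and rose by 0.40 ± 0.08 without overlap (limma adjusted p = 0.00307). Prpf4b, already given among the Prpf genes, was a further one, and Ppp1cc, a catalytic subunit of protein phosphatase 1, rose by 0.17 ± 0.05 (limma adjusted p = 0.0325). The count was 2 without RG3487 animal 2 or without vehicle animals 3 or 4. Ppp1cc lost its call without vehicle animals 2, 3 or 4 or RG3487 animals 1, 2 or 5 (limma adjusted p of 0.0509 to 0.0783).

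Some of these genes share a promoter region with a neighbour that runs the other way. In RefSeq, 13 of the 62 genes with a promoter window (21.0%) had a protein-coding gene that starts within 1000 bases upstream on the other strand, against 12.4% of the 6514 tested genes. Over all genes 22.3% were higher, and over all probe sets tested 7.16% were lower. Of the 8 neighbours that were measured, too few to be told apart from these shares, 0 rose and 1 fell. That was Gucd1, which starts 135 bases from Snrpd3 and changed by -0.57 ± 0.12 (limma adjusted p = 0.00554), while Snrpd3 rose by 0.33. Cog4, beside Sf3b3, had 0.17 ± 0.12, Enoph1, beside Hnrnpdl, 0.25 ± 0.11, and Cdc26, beside Prpf4, 0.17 ± 0.16, and none of them passed. The difference between a gene and its neighbour was not tested.

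Other tests made fewer calls. The exact rank-sum test of each probe set, adjusted over all 11894, had 34 of the 95 higher, against 13.9% of all probe sets. Only groups that did not overlap passed it, so it repeats the counts given above for such groups. A fit with the animal number as a block had 40 higher, against 17.6%.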

How the data were processed

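The deposited series table holds 1 signal intensity per probe set and array, in whole numbers on a linear scale, and was made by the authors with MAS5 per the submitters' processing notes. Scaling target, software version and detection calls were not given in the sources used here. Symbols came from the platform annotation, and 1 symbol per probe set was required.

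From these intensities, log2(signal + 16) was computed, a scale that understates the fold of dim genes. The 40 control probe sets and the dimmest 25% were left out, and limma 3.58.1 (R 4.3.3; lmFit, eBayes with trend) compared 5 with 5 arrays over 11894 probe sets, two-sided, with Benjamini-Hochberg adjustment. Single values used exact two-sided permutation tests, with a smallest possible p of 0.00794. The fit was tested on simulated data. Promoters are RefSeq, GRCr8. The promoter motifs were chosen with the changes of the genes known, and those of NRF1 and ZBTB33 were shortened after their first counts had been seen.

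Families and gene lists were chosen with earlier results of these data known. Named are up to 6 passing probe sets with the smallest p per family, the 6 largest increases and decreases, genes whose probe sets differ in sign where 1 passed, up to 3 genes per other list and the probe sets at the filter; further members complete their families, and Gucd1 and other neighbours were named after their values were seen. The alternatives were 3 other scalings (quantile normalization, centring, hybridization controls), pseudocounts of 1 and 64, no filter or a filter at 50%, no trend, array weights, a replicate block, a rank-sum test and each array left out. The replicate numbers are given per group by the titles, which name no pairing of the animals.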

Additional observations from a re-analysis of the deposited data

Results flagged for a closer look

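In 7 of 132 groups of 5 values checked, 1 animal stood apart from the other 4 by more than Dixon's critical value of 0.71, a share near the 1 in 20 that chance gives. RG3487 animal 3 was the low value in 5 of the 7. It read 290 for Snrpd3, with the other 4 at 362 to 377, and 302 for Sf3b3, with the others at 367 to 392. It read 170 for Sf3b4, against 210 to 227, 423 for Hnrnpa3 at 1370872_at, against 501 to 529, and 223 for Alyref, against 282 to 291. RG3487 animal 2 was low for Upf2, at 204 against 223 to 227, and vehicle animal 4 was high for Snrpb2, at 144 against 136 to 138. These genes share the same arrays, so the 5 low values of RG3487 animal 3 are not independent of each other.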

How the results depend on the processing

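As deposited, 49 splicing probe sets were higher and 0 lower. Quantile normalization gave 29 and 2, with 3 higher for Snrp, 2 for Prpf, 1 for Lsm and 0 for U2af, 1 lower each for Srsf and Hnrnp, 12 higher for the other spliceosome genes, 1 lower among the regulators, and 1 higher and 2 lower among the SR kinases and phosphatases. Centring gave 32 and 2, with 3 higher for Snrp, 2 for Lsm and 0 for U2af, 2 lower for Srsf, 14 higher for the other spliceosome genes, 1 for the SMN list and 11 for the regulators, and 2 higher and 2 lower among the kinases. The hybridization controls gave 81 higher, with 10 for Srsf, 11 for Sf3a and Sf3b, 13 for Prpf, 12 for Lsm, 41, 10, 18 and 32 in the spliceosome, SMN, export and regulator lists, and 7 kinases. There Hnrnpa2b1 1373540_at (0.02), Hnrnpa3 1374405_at (0.12) and Hnrnph3 1375019_at (0.10) turned from below to above 0. The rank-sum test gave 3 for Snrp, 0 for U2af and 4 for export. Leaving out the dimmest 50% gave 2 kinases, and array weights 1 lower kinase.

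With the replicate number as a block, 40 of the 49 remained, with 3 for Lsm and 2 kinases. Same-numbered pairs correlated at -0.0371 to 0.174 and other pairs at -0.153 to 0.244, and 1 of 5 vehicle arrays correlated best with its own number. These values show no pairing by number, but so few pairs cannot exclude one.

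With 1 animal left out, the count higher was 35 to 49 and the count lower 0 to 2. By family it was 4 to 5 for Snrp, 4 to 6 for Srsf (0 to 1 lower), 5 to 8 for Sf3a and Sf3b, 4 to 6 for Prpf (0 to 1 lower), 2 to 6 for Lsm, 0 to 2 for U2af and 16 to 20 for Hnrnp (0 to 1 lower). In the lists it was 17 to 21 for the spliceosome, 1 to 3 for SMN, 6 to 10 for export, 12 to 19 for the regulators and 2 to 4 for the kinases (0 to 2 lower). Pseudocounts of 1 and 64 kept all 49. The causes of these changes were not tested, and signal over background limits the 10 dim probe sets.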
